A study of Arabidopsis thaliana with 8 samples.

Results

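This account describes how shoot apex transcripts differed between day 16 and day 10 of growth in an Arabidopsis thaliana line designed to lower PECT1. The line carries pFD::amiR-PECT1, an artificial microRNA against PECT1 driven by the promoter of FD, and is called the knockdown line here. The comparison was set by the sample titles: 2 libraries of the knockdown line at day 16 stand against 2 libraries of the same line at day 10, 4 of the 8 libraries of the study. The other 4 libraries are wild type at day 16 and at day 10, 2 each, and served to estimate the spread and to set the same ageing beside it. Every group was grown on plates in short days at 23 °C and was harvested at ZT 8. No treatment other than age separates the 2 sides. The description covers 17467 genes of the 27655 loci in the deposited table, those with at least 1 RPKM (reads per kilobase of transcript, scaled to library depth) in at least 2 of the 8 libraries. The labels name 1 knockdown line and do not say how many transformants it represents, how many apices went into a library, or whether replicate libraries were sown separately. The p-values therefore measure the spread between these libraries, which may in part be technical.

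In Arabidopsis the shoot apical meristem makes rosette leaves until day length, temperature, hormones and plant age lead it to make flowers. The MADS-box factors SOC1 and AGL24 promote that change at the apex, FLC and SVP restrain it, and the bZIP factor FD acts there together with the mobile protein FT. PECT1 makes CDP-ethanolamine, the activated precursor of the membrane lipid phosphatidylethanolamine. An apex sample of a seedling also holds young leaf primordia with their epidermis, mesophyll and veins.

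Estimated depth was 15460000 and 18160000 reads at day 16, and 17010000 and 17310000 at day 10. Replicate 1 of day 16 stood apart. Its estimated share of reads on nuclear genes was 85.4%, while the other 7 libraries had 93.1% to 95.7%. It also had the highest summed chloroplast level, at 1817 RPKM (1071 to 1581 in the others), and the highest summed mitochondrial level, at 264 RPKM (106 to 159 in the others). Across genes, the Pearson r between replicates was 0.968 at day 16 and 0.975 at day 10 on log2(RPKM + 1), and replicates differed by more than sampling noise. Among markers, the meristem gene STM was present in each library, and the mesophyll markers were among the most abundant transcripts. Of 15 root markers, 12 stayed below the filter, among them the root hair genes RHD6, RSL4 and EXPA7, listed at 0 in all 4 knockdown libraries. SCR, SHR and WOX5 passed it, and the list summed to 20.6 and 26.2 RPKM at day 16 and 26.3 and 27.3 RPKM at day 10, so root markers were low but not absent.

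PECT1 itself (AT2G38670, chromosome 2, 16168712 to 16171918) had 34.4 and 37.0 RPKM at day 16 and 35.3 and 37.1 RPKM at day 10 in the knockdown line, against 40.4 and 41.3 RPKM at day 16 and 40.7 and 39.2 RPKM at day 10 in wild type. The values of both ages overlapped, with a log2 fold change of day 16 over day 10 of -0.02 ± 0.15 (SE; limma, Benjamini-Hochberg adjusted p = 0.991). FD had 2.49 and 2.57 RPKM at day 16 and 1.23 and 1.05 RPKM at day 10 in the knockdown line. Both values of day 16 lay above both of day 10, but the difference did not pass (log2 fold change 0.72 ± 0.25, adjusted p = 0.395). The microRNA was driven by the FD promoter, and whole-apex values do not show how much PECT1 the FD-expressing cells held.

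Few genes passed the test between the ages, and most of those that did were higher at day 16. Of 17467 genes, 47 passed limma at an adjusted p under 0.05 (0.269%), 41 of them higher at day 16 (0.235%) and 6 lower (0.0344%). The rises had log2 fold changes of 0.92 to 5.22 with a median of 1.84, and the falls had -1.75 to -1.09 with a median of -1.49. These folds are on log2(RPKM + 1), which understates the change of low genes, and limma was fitted over all 8 libraries with 1 shared spread per gene. The 47 genes lie on all 5 nuclear chromosomes. At an unadjusted p under 0.05 there were 818 higher and 675 lower genes, 1493 in all (8.55%). Over all genes, both libraries of day 16 lay above both of day 10 in 15.9% and below them in 17.9%. In bulk samples such as these, fewer cells of a type and less RNA per cell cannot be told apart.

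**Figure D1:**
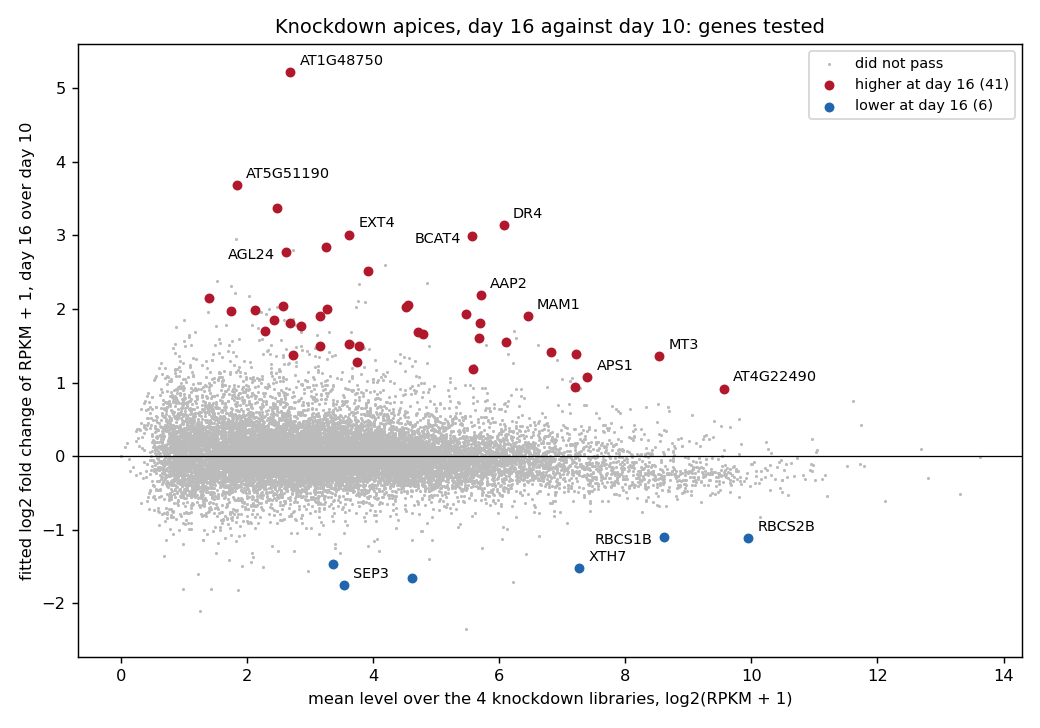
Each point is 1 of the 17467 genes tested, with its mean level in the 4 knockdown libraries on the x axis and its fitted log2 fold change, day 16 over day 10, on the y axis, both from log2(RPKM + 1). The 41 genes that passed as higher (red) range from 0.92 to 5.22 and the 6 that passed as lower (blue) from -1.75 to -1.09, while the median of all genes is -0.0054.

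The count depended on single libraries. Without replicate 1 of day 16, 22 genes passed, 16 of them among the 47. Without replicate 2 of day 16, 16 passed and 15 were shared. Without replicate 1 of day 10, 24 passed and 16 were shared, and without replicate 2 of day 10, 19 passed and 16 were shared. In each of these fits all 47 genes kept the sign of their fold change. That outcome was fixed beforehand, since in all 47 both libraries of day 16 lay beyond both of day 10. DR4, EXT4, AGL24 and AAP2 passed under all 22 alternatives of processing or libraries compared, and 11 of the 47 passed under at least 20.

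**Figure D2:**
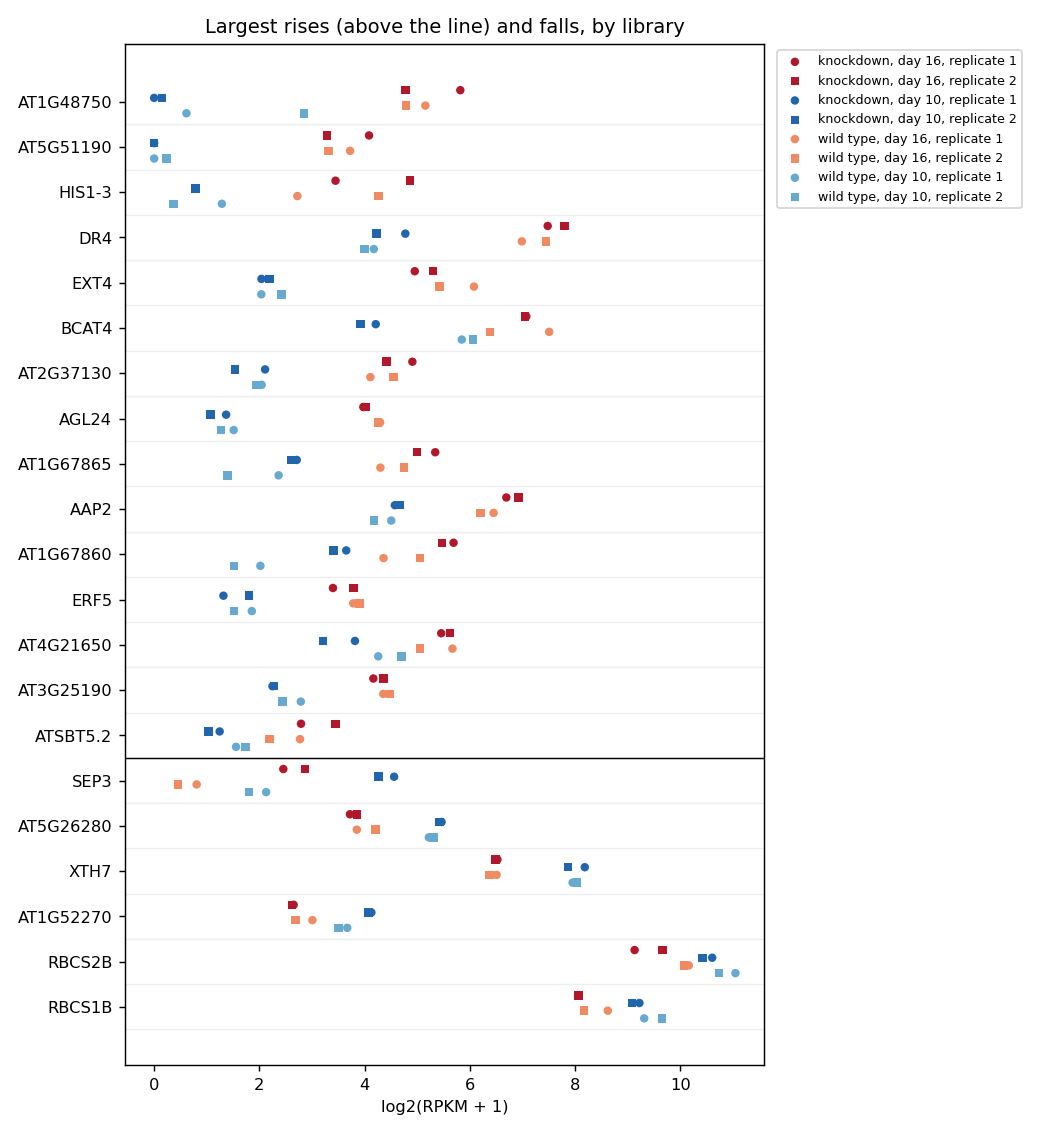
The 15 largest rises (above the line) and the 6 falls are plotted by library, with log2(RPKM + 1) on the x axis, circles for replicate 1 and squares for replicate 2. In each of these genes both knockdown libraries of day 16 (dark red) lie on one side of both of day 10 (dark blue), and the wild-type libraries (light colours) show the same order.

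MADS-box genes of flowering changed in both directions. AGL24 (AT4G24540, chromosome 4, 12670897 to 12674106), a promoter of flowering that acts with SOC1 in the meristem, had 14.7 and 15.2 RPKM at day 16 and 1.58 and 1.1 RPKM at day 10. It rose with a log2 fold change of 2.78 ± 0.21 (limma adjusted p = 0.00143). AGL24 rose to a similar degree in wild type, with 18.6 and 18.1 RPKM at day 16 and 1.85 and 1.41 RPKM at day 10. The wild-type log2 fold change was 2.89 ± 0.21 (limma adjusted p = 0.000694). SEP3 (AT1G24260, chromosome 1, 8593536 to 8596123), which joins other MADS-box proteins in flower meristem and organ identity complexes, had 4.48 and 6.28 RPKM at day 16 and 22.6 and 18.18 RPKM at day 10. Its groups did not overlap and it fell (-1.75 ± 0.26, adjusted p = 0.0295), passing under 14 of the 22 alternatives. In wild type SEP3 was lower throughout, at 0.75 and 0.37 RPKM at day 16 and 3.37 and 2.48 RPKM at day 10.

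The other regulators of flowering time did not pass. SOC1 had 11.9 and 19.3 RPKM at day 16 and 6.13 and 7.55 RPKM at day 10, higher in both libraries of day 16 (1.05 ± 0.25, adjusted p = 0.173). The repressor FLC was also higher in both, at 11.4 and 13.2 RPKM against 4.93 and 4.5 RPKM (1.22 ± 0.24, adjusted p = 0.0944). SVP, the other MADS-box repressor, had 7.08 and 6.67 RPKM at day 16 and 3.15 and 4.55 RPKM at day 10 (0.71 ± 0.21, adjusted p = 0.287), and both ages lay below wild type, which had 43.1 and 54.1 RPKM at day 16 and 34.1 and 32.0 RPKM at day 10. FT was at 0.07 and 0.28 RPKM at day 16 and 0 and 0.18 RPKM at day 10, AP1 at 0 and 0.09 RPKM and listed at 0 in both libraries of day 10, and FUL at 0.2 and 0.42 RPKM and 0.09 and 0.18 RPKM, all too low to be tested. Of the 6 tested flowering promoters AGL24 rose and 0 fell, with a list median of 0.53 (0.46 to 0.63 with 1 knockdown library left out). Of the 14 tested floral repressors 0 rose and 0 fell, with 6 positive and a median of -0.06, which turned to 0.12 without replicate 2 of day 16.

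The SPL genes, targets of miR156 through which plant age acts on phase change, gave 0 passing members of 8 tested, with 4 positive and a median of -0.0044. SPL3 was at 13.4 and 17.1 RPKM at day 16 and 8.87 and 6.3 RPKM at day 10 (0.93 ± 0.30, adjusted p = 0.35). SPL9 was at 1.63 and 1.73 RPKM and 1.49 and 1.72 RPKM, with overlapping groups (0.04 ± 0.24, adjusted p = 0.986). SPL13A had the smallest p of the list, at 3.78 and 4.75 RPKM at day 16 and 0.31 and 0.81 RPKM at day 10 (1.77 ± 0.38, adjusted p = 0.126), but it is a near-copy of SPL13B, which was at 2.41 and 4.11 RPKM and 4.44 and 3.19 RPKM, and the counting could have split reads between them. SPL5 and SPL15 were too low to be tested.

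Genes for glucosinolates, the sulfur-rich defence compounds of this plant family, had positive fold changes in 19 of 20 tested members, of which 2 passed, both in the methionine-derived (aliphatic) branch. Aliphatic glucosinolates start from methionine whose side chain is lengthened in cycles: BCAT4 removes the amino group, MAM1 condenses the product with acetyl-CoA, and isopropylmalate isomerase, whose large subunit is IIL1, rearranges it. All 3 of these genes rose, but IIL1 is not in the glucosinolate list and was named after its values were seen. Of the 22 alternatives, BCAT4 passed under 19, MAM1 under 15 and IIL1 under 9. The 250 bases before their annotated starts (RefSeq, TAIR10.1) are shown because the 3 genes belong to 1 pathway and rose together. Capitals mark the letters TATAAA and the G-box letters CACGTG, on either strand. The distance of a match from the start was not taken into account.
BCAT4 promoter (chr3:6849583-6849832, minus strand): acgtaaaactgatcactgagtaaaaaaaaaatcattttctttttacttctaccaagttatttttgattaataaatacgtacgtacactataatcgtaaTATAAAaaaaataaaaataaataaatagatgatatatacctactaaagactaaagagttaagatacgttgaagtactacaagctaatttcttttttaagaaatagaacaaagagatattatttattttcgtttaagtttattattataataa
MAM1 promoter (chr5:7702791-7703040, plus strand): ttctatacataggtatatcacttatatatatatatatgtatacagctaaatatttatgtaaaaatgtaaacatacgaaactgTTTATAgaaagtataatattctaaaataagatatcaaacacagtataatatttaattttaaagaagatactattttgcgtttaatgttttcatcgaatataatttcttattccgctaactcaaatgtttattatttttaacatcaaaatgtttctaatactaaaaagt
IIL1 promoter (chr4:7807985-7808234, minus strand): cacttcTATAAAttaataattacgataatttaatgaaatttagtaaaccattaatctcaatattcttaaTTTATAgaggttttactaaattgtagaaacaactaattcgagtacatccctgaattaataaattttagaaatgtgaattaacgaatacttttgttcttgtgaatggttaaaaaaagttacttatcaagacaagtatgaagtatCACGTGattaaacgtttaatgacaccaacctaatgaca
Each of the 3 holds TATAAA, and IIL1 alone of them holds CACGTG. Among all 17343 promoters of tested genes that could be read, 45.6% held TATAAA and 7.53% held CACGTG, so such matches are common outside this pathway too.

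BCAT4 (AT3G19710, chromosome 3, 6846969 to 6849582) had 133 and 131 RPKM at day 16 and 17.5 and 14.1 RPKM at day 10, a log2 fold change of 2.99 ± 0.30 (limma adjusted p = 0.00392). MAM1 (AT5G23010, chromosome 5, 7703041 to 7706973) had 164 and 172 RPKM at day 16 and 44.8 and 43.9 RPKM at day 10 (1.90 ± 0.25, adjusted p = 0.0172). Replicates of both genes lay close together and far from those of the other age. IIL1, which also serves leucine synthesis, had 209 and 197 RPKM at day 16 and 106 and 104 RPKM at day 10 (0.94 ± 0.15, adjusted p = 0.0388). In wild type the spread was wider: BCAT4 had 181 and 82.2 RPKM at day 16 and 56.5 and 65.7 RPKM at day 10, so the age difference was larger in the knockdown line by 2.00 on the log2 scale, with an unadjusted interaction p of 0.000823 and an adjusted p of 1.

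Of the 20 tested genes of the glucosinolate list, 2 rose (BCAT4 and MAM1, since IIL1 is not in it), 0 fell and 19 had a positive fold change, against 49.2% positive over all genes tested. The list median was 1.04, against -0.0054 for all genes, and it ranged from 0.44 to 1.46 with 1 knockdown library left out. In wild type 19 were positive as well, with a median of 0.59, against 0.10 for all genes there. The median log2 difference of replicate 2 over replicate 1 was 0.79 at day 16 and 0.91 at day 10 in the knockdown line. Among 12 genes of the aliphatic branch, 10 had both libraries of day 16 above both of day 10, an order that 15.9% of all genes showed. CYP79F1, which makes the aldoximes of the aliphatic branch, had 26.0 and 34.1 RPKM at day 16 and 2.82 and 8.61 RPKM at day 10, and did not pass (2.34 ± 0.84, adjusted p = 0.429). CYP83A1, the next enzyme, had 149.6 and 118 RPKM against 41.9 and 44.6 RPKM (1.6 ± 0.36, adjusted p = 0.14). Of 7 genes of the tryptophan-derived (indole) branch 1 kept that order, IGMT1. In all 7 replicate 2 was above replicate 1 at both ages, as for CYP83B1 with 21.1 and 69.3 RPKM at day 16 and 8.98 and 38.2 RPKM at day 10. Replicate 2 was also the higher one in 8 of the 12 aliphatic genes at day 16 and in 7 at day 10. Over all genes tested the shares were 74.7% and 64.0%. The aliphatic median was 1.49 in the knockdown line and 0.41 in wild type, and the indole median was 0.74 and 0.87. The difference between the 2 branches was not tested.

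**Figure D3:**
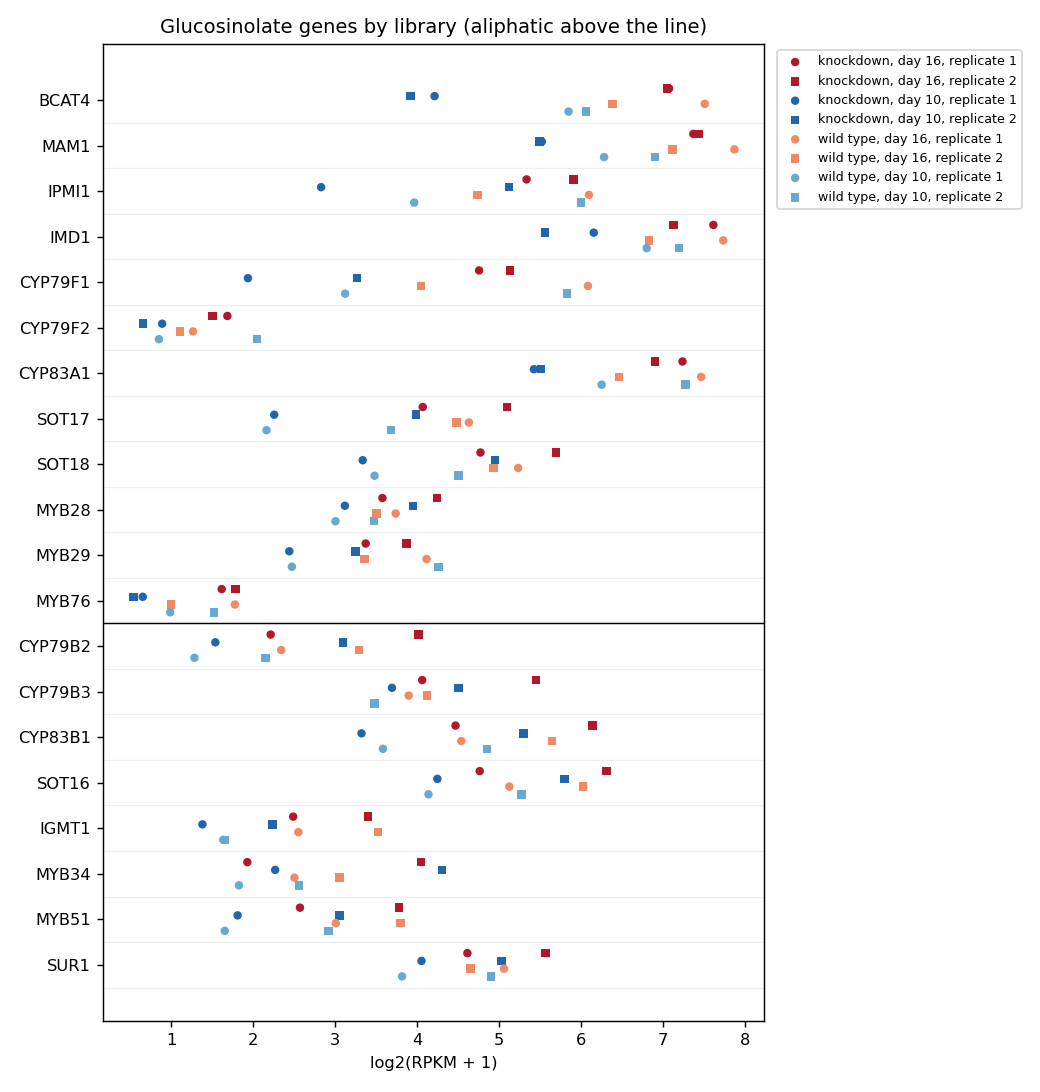
Levels of 20 glucosinolate genes by library, as log2(RPKM + 1) on the x axis, with circles for replicate 1 and squares for replicate 2. In 10 of the 12 aliphatic genes (above the line) both knockdown libraries of day 16 (dark red) lie above both of day 10 (dark blue), and in the 7 indole genes below it replicate 2 lies above replicate 1 at both ages; SUR1, at the bottom, serves both branches.

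Sulfate enters this chemistry through ATP sulfurylase. APS1 (AT3G22890, chromosome 3, 8112614 to 8115024), a plastid form of that enzyme, had 217 and 272 RPKM at day 16 and 114 and 117 RPKM at day 10 and rose (1.07 ± 0.17, limma adjusted p = 0.0388). The sulfate transporter gene SULTR2;1 had 169 and 248 RPKM at day 16 and 102 and 93.3 RPKM at day 10 and missed the threshold, though it passed under 7 of the 22 alternatives (1.06 ± 0.18, adjusted p = 0.0528). The 3 APS reductase genes APR1, APR2 and APR3 did not pass, with fold changes of 0.86, -0.08 and -0.18 on the log2 scale. Over the 13 tested genes of sulfur assimilation and deficiency 1 rose, 0 fell and 10 were positive, with a median of 0.25 (0.12 without replicate 1 of day 10).

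Genes tied to ethylene were among the rises, namely 3 ERF transcription factor genes and the F-box gene EBF2, a grouping made after the 47 genes were known. Ethylene stabilises the transcription factor EIN3, EBF2 marks EIN3 for degradation, and ERF factors act downstream. ERF5 (AT5G47230, chromosome 5, 19179881 to 19181182) had 9.54 and 12.8 RPKM at day 16 and 1.49 and 2.48 RPKM at day 10 (2.03 ± 0.25, limma adjusted p = 0.0131). AT5G51190 (chromosome 5, 20800473 to 20801437), for which RefSeq lists the synonym ERF105, had 15.9 and 8.73 RPKM at day 16 and was listed at 0 in both libraries of day 10. It passed (adjusted p = 0.00143), and no fold is given against a group listed at 0. EBP, a factor of the group tied to low oxygen, had 111 and 124 RPKM at day 16 and 40.5 and 38.2 RPKM at day 10 (1.55 ± 0.16, adjusted p = 0.00432). EBF2 had 66.1 and 77.3 RPKM at day 16 and 29.8 and 32.2 RPKM at day 10 (1.18 ± 0.16, adjusted p = 0.0172). In all 4 genes the groups stood well apart, and all 4 also passed in wild type.

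The promoter of ERF5, an ERF gene that was low at day 10, is shown from the same annotation. Capitals mark TATAAA, the W-box letters TTGACC or TTGACT and the letters CCGAC (dehydration response element core), on either strand.
ERF5 promoter (chr5:19179631-19179880, plus strand): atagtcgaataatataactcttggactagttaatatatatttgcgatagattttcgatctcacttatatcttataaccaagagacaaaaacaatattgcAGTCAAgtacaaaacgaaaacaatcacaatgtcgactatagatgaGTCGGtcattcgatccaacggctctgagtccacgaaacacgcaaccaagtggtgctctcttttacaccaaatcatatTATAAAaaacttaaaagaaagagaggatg
A W-box was present in this promoter, in 17.1% of the promoters of the 41 genes that rose, in 16.7% (1 of 6) of those that fell and in 27.3% of all promoters read. TATAAA was present in 61.0% of the promoters of genes that rose, in 50% of those that fell and in 45.6% of all. The G-box was at 7.32% among genes that rose and 7.53% among all, CCGAC at 9.76% and 13.2%, and the site II letters TGGGCC at 2.44% and 17.7%. These shares are descriptions of letters in a window of 250 bases.

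Genes of the cell wall went both ways. EXT4 (AT1G76930, chromosome 1, 28895301 to 28897120), an extensin that cross-links in the wall, had 29.9 and 38.3 RPKM at day 16 and 3.11 and 3.57 RPKM at day 10 (3.01 ± 0.26, limma adjusted p = 0.00147). The class III peroxidase genes AT2G37130 and AT5G64110 rose as well. AT2G37130 had 29.0 and 20.3 RPKM at day 16 and 3.31 and 1.9 RPKM at day 10 (2.84 ± 0.27, adjusted p = 0.00294), and AT5G64110 had 75.1 and 104 RPKM and 28.5 and 28.3 RPKM (1.61 ± 0.18, adjusted p = 0.00662). XTH7 (AT4G37800, chromosome 4, 17775370 to 17777445), which cuts and rejoins xyloglucan chains, fell: it had 90.9 and 88.8 RPKM at day 16 and 289 and 232 RPKM at day 10 (-1.52 ± 0.14, adjusted p = 0.00294). It was the 1 member of 22 tested expansin and XTH genes that passed, and 8 of the 22 were positive. XTH4, another abundant member, overlapped between the ages, at 371 and 665 RPKM at day 16 and 491 and 581 RPKM at day 10.

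Among the other rises were a gene of amino acid transport and several protease genes. AAP2 (AT5G09220, chromosome 5, 2866222 to 2869156), an amino acid permease of the veins that moves amino acids from xylem to phloem, had 102 and 120.2 RPKM at day 16 and 22.8 and 24.4 RPKM at day 10 (2.19 ± 0.18, limma adjusted p = 0.00143). Genes for 4 proteases rose: the subtilases AT4G21650 and ATSBT5.2, the papain-type protease AT4G16190 and the serine carboxypeptidase-like scpl31. AT4G16190 was the most abundant of the 4, at 198 and 289 RPKM at day 16 and 93.3 and 89.0 RPKM at day 10 (1.38 ± 0.19, adjusted p = 0.0204). AT4G21650 had 42.9 and 48.1 RPKM at day 16 and 13.1 and 8.24 RPKM at day 10 (2.02 ± 0.27, adjusted p = 0.017), though 27.3% of the gene's length has a near-copy elsewhere in the nuclear genome. ATSBT5.2 had 5.92 and 9.89 RPKM against 1.37 and 1.04 RPKM (1.98 ± 0.30, adjusted p = 0.0323), and scpl31 had 9.47 and 12.8 RPKM against 3.19 and 1.79 RPKM (1.81 ± 0.29, adjusted p = 0.0388).

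Genes for 2 protease inhibitors rose as well. DR4 (AT1G73330, chromosome 1, 27568714 to 27569823), a gene of the Kunitz inhibitor family named for its repression by drought, had 177 and 222 RPKM at day 16 and 26.3 and 17.7 RPKM at day 10 (3.14 ± 0.23, limma adjusted p = 0.00143). The cystatin gene AT5G05110 had 17.2 and 22.5 RPKM at day 16 and 7.23 and 5.24 RPKM at day 10 (1.53 ± 0.24, adjusted p = 0.0388). AT3G25190, of the vacuolar iron transporter family, had 16.9 and 19.5 RPKM at day 16 and 3.75 and 3.85 RPKM at day 10 (2.00 ± 0.20, adjusted p = 0.00393). In both DR4 and AT3G25190 the replicates lay much closer to each other than to those of the other age.

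Lipid-transfer proteins are small secreted proteins that bind lipids at the cell surface. Single genes annotated only to the wider superfamily of bifunctional inhibitors, lipid-transfer proteins and seed storage albumins rose, while the list did not. AT1G48750 (chromosome 1, 18035967 to 18036510) had 55.4 and 26.3 RPKM at day 16, and was listed at 0 and at 0.11 RPKM at day 10. Its fitted log2 fold change, the highest of the 47, was 5.22 ± 0.60 (limma adjusted p = 0.00805), and with 1 library at 0 its size depends on the pseudocount of 1 RPKM. AT3G53980 had 99.0 and 73.9 RPKM at day 16 and 28.3 and 16.6 RPKM at day 10 (1.93 ± 0.25, adjusted p = 0.0168). AT4G22490, the most abundant transcript that rose, had 913 and 1179 RPKM at day 16 and 543 and 555 RPKM at day 10 (0.92 ± 0.14, adjusted p = 0.0388). None of these 3 is in the list of 9 tested lipid transfer protein genes, of which 0 rose, 0 fell and 3 were positive, with a median of -0.31 (-0.17 under quantile normalization). LTPG1, its member with the smallest p, had 200.1 and 225 RPKM at day 16 and 288 and 297 RPKM at day 10 (-0.46 ± 0.12, adjusted p = 0.238).

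Stress-linked and hormone-linked genes were among the rises as single genes. PR5, a thaumatin-like protein used as a mark of salicylic acid defence, had 15.5 and 16.9 RPKM at day 16 and 2.69 and 4.75 RPKM at day 10 (1.90 ± 0.23, limma adjusted p = 0.0127). It was the 1 member of 12 tested defence genes that passed, and PR1 and PR2 were listed at 0 in all 4 knockdown libraries. Of the 12 genes 9 were positive, with a median of 0.34 (0.09 to 0.56 with 1 knockdown library left out). In 6 of them both libraries of day 16 lay above both of day 10 (15.9% over all genes), and in 1 below (17.9%). In wild type 11 of the 12 were positive, with a median of 0.44. MT3, a metallothionein that binds metal ions, had 574 and 612 RPKM at day 16 and 223 and 240.2 RPKM at day 10 (1.35 ± 0.21, adjusted p = 0.0351). HIS1-3, a linker histone variant that drought induces, had 9.9 and 28.02 RPKM at day 16 and 0.73 and 0.72 RPKM at day 10 (3.37 ± 0.56, adjusted p = 0.0498). Its libraries of day 16 differed widely, and it was the gene nearest to the threshold on the passing side, while the annexin gene ANNAT1 (170.4 and 206 RPKM at day 16, 75.5 and 75.2 RPKM at day 10, adjusted p = 0.0511) was nearest on the other.

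Cytokinin signals pass from receptors through AHP proteins to response regulators, and 1 gene of this chain passed. AHP4 had 6.2 and 5.05 RPKM at day 16 and 0.56 and 0.8 RPKM at day 10 and rose (1.98 ± 0.26, limma adjusted p = 0.016), while wild type had 2.34 and 2.79 RPKM at day 16 and 2.16 and 1.38 RPKM at day 10. Of 8 tested type-A response regulators, which cytokinin induces and which damp its signal, 0 rose, 0 fell and 3 were positive, with a list median of -0.67 in the knockdown line and -0.10 in wild type. ARR4 had 10.97 and 7.14 RPKM at day 16 and 22.1 and 21.96 RPKM at day 10 (-1.22 ± 0.21, adjusted p = 0.0604), and ARR7 had 9.05 and 10.5 RPKM and 19.0 and 27.6 RPKM (-1.15 ± 0.22, adjusted p = 0.0788). Both took places that the falls left empty in the rule for naming genes. ARR4 passed under 3 of the 22 alternatives, among them the fit without replicate 1 of day 16 (limma adjusted p = 0.0428). The same rule named AT3G05730, a defensin-like gene (-1.25 ± 0.21, adjusted p = 0.0556), and AT1G76240 (-1.44 ± 0.27, adjusted p = 0.0788).

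Of 13 tested genes of the shoot meristem and organ boundaries, 0 passed and 10 were positive, with a median of 0.16 (0.12 to 0.49 with 1 knockdown library left out). STM, which keeps meristem cells undifferentiated, had 17.5 and 17.42 RPKM at day 16 and 6.49 and 9.05 RPKM at day 10 (1.09 ± 0.20, limma adjusted p = 0.078). Its 2 values of day 16 were nearly equal and lay above both of day 10. KNAT1, a related factor, overlapped, at 7.92 and 10.3 RPKM at day 16 and 6.65 and 10.6 RPKM at day 10. LSH10, of the ALOG family to which boundary regulators belong, rose: it had 22.02 and 21.9 RPKM at day 16 and 6.66 and 7.58 RPKM at day 10 (1.5 ± 0.18, adjusted p = 0.0102).

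The 2 abundant genes that fell, RBCS2B and RBCS1B, encode small subunits of Rubisco, the carbon-fixing enzyme of the leaf. RBCS2B (AT5G38420, chromosome 5, 15380907 to 15382071) had 559 and 807 RPKM at day 16 and 1554 and 1364 RPKM at day 10 (-1.11 ± 0.18, limma adjusted p = 0.0388). RBCS1B had 266 and 266 RPKM at day 16 and 596 and 541 RPKM at day 10 (-1.09 ± 0.17, adjusted p = 0.0388). They are neighbours on chromosome 5 with near-copies over 34.1% and 46.0% of their length, so the counting could have split reads among the RBCS genes. RBCS1A, the most abundant member, had 8057 and 8855 RPKM at day 16 and 12928 and 11328 RPKM at day 10 and did not pass (-0.52 ± 0.11, adjusted p = 0.112). Of 11 tested mesophyll markers these 2 fell, 0 rose and 1 was positive. The median of the 11 was -0.41 (-0.57 to -0.34 with 1 knockdown library left out) and -0.50 in wild type. Under quantile normalization it was -0.18 in the knockdown line, with 4 of the mesophyll markers positive. Their summed level was 31982 and 31909 RPKM at day 16 and 44203 and 35549 RPKM at day 10. Of 32 nuclear photosynthesis genes 0 passed and 3 were positive, with a median of -0.20. It was -0.08 with 9 positive without replicate 1 of day 10, -0.32 without replicate 2 of day 10, and -0.06 with 12 positive under quantile normalization.

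The summed level of 17 vascular markers was 397 and 534 RPKM at day 16 and 340 and 341 RPKM at day 10, of which SULTR2;1 made up 169 and 248 RPKM and 102 and 93.3 RPKM. Without SULTR2;1 the other 16 summed to 228 and 286 RPKM at day 16 and 237 and 248 RPKM at day 10, which overlap. None of the 17 passed, and 9 were positive. The phloem gene SUC2 had 27.6 and 46.5 RPKM at day 16 and 25.3 and 27.7 RPKM at day 10. All 15 guard cell and stomatal lineage markers had a negative fold change, with a median of -0.42 against -0.16 in wild type, and 0 of them passed. Their sum was 172 and 213 RPKM at day 16 and 235 and 250 RPKM at day 10, and EPF2, a signal of stomatal precursors, had 10.4 and 9.18 RPKM and 18.5 and 19.0 RPKM (-0.88 ± 0.18, limma adjusted p = 0.112). The mesophyll and stomatal sums were thus lower at day 16, and their part in the changes of single genes was not tested.

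Other genes that passed have less certain roles. AT1G67860 and AT1G67865, neighbouring genes of uncharacterized proteins on chromosome 1 (25444752 to 25447622 for the pair), rose to similar degrees. AT1G67860 had 50.6 and 43.4 RPKM at day 16 and 11.6 and 9.63 RPKM at day 10 (2.05 ± 0.27, limma adjusted p = 0.016), and AT1G67865 had 39.5 and 30.9 RPKM and 5.54 and 5.11 RPKM (2.51 ± 0.31, adjusted p = 0.0127). Of 2 TRAF-like genes that passed, AT5G26280 fell, with 12.2 and 13.5 RPKM at day 16 and 43.0 and 41.9 RPKM at day 10 (-1.65 ± 0.18, adjusted p = 0.0051). The other, AT2G32870, rose, with 11.5 and 16.6 RPKM and 4.16 and 4.4 RPKM (1.49 ± 0.24, adjusted p = 0.0388). AT1G52270, uncharacterized, fell, with 5.28 and 5.14 RPKM at day 16 and 16.5 and 15.8 RPKM at day 10 (-1.46 ± 0.20, adjusted p = 0.0172), and 40% of its length has a near-copy elsewhere. The other rises were AT1G07590 (a TPR-like protein), AT1G32700 (a PLATZ factor), AT1G49210 (a RING protein), AT5G01200 (a homeodomain-like protein), AT2G30670 (an NAD(P)-binding protein), AT3G45160 (a putative membrane lipoprotein) and the uncharacterized AT2G15830 and AT2G27830. AT1G07590 was the most abundant of these, at 229 and 146 RPKM at day 16 and 69.9 and 66.2 RPKM at day 10.

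Of the 47 genes, AT2G07671 and AT2G07739 are the ones whose whole length has a copy at 90% identity or more in an organelle genome. They lie on chromosome 2 at 3251566 to 3252341 and 3495511 to 3496398, are annotated as an ATP synthase subunit C protein and a Ycf1 protein, and both match the mitochondrial genome over 100% of their length. AT2G07739 also matches the chloroplast genome over 92.5% of its length. AT2G07671 had 57.2 and 40.4 RPKM at day 16 and 15.8 and 13.4 RPKM at day 10 (1.66 ± 0.21, limma adjusted p = 0.0127). AT2G07739 had 10.8 and 7.69 RPKM at day 16 and 1.26 and 2.54 RPKM at day 10 (1.84 ± 0.27, adjusted p = 0.031). The summed mitochondrial level was 264 and 159 RPKM at day 16 and 122 and 112 RPKM at day 10, the order in which the libraries also fall for AT2G07671. The summed chloroplast level was 1817 and 1278 RPKM at day 16 and 1374 and 1581 RPKM at day 10. Of 52 tested mitochondrial genes 0 passed limma, 17 had an unadjusted p under 0.05 and 46 were positive. Over all genes tested, 8.55% had such a p and 49.2% were positive. The median of the mitochondrial genes was 0.57 in the knockdown line, 0.33 there without replicate 1 of day 16, and 0.11 in wild type. Whether the reads of these 2 genes came from the nucleus or from an organelle was not tested.

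The same ageing was measured in wild type from 4 other libraries. There 39 genes passed (0.223%), 34 higher (0.195%) and 5 lower (0.0286%) at day 16, and 24 genes passed in both genotypes, 21 higher and 3 lower. That is 51.1% of the knockdown calls and 61.5% of the wild-type calls. AGL24, DR4, EXT4, AAP2 and XTH7 were among the 24. All 47 genes that passed in the knockdown line had the same sign in wild type, where 66.3% of all genes tested had a positive fold change and 7.46% had an unadjusted p under 0.05. In all 47 both wild-type libraries of day 16 also lay beyond both of day 10 on the same side, an order that 32% of all genes showed upwards and 10.6% downwards in wild type. No library enters both comparisons, but each gene's spread was estimated once for both.

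None of the 17467 genes passed the test of a difference in ageing between the genotypes (limma, 288 at an unadjusted p under 0.05, smallest adjusted p = 1). Of the 41 rises, 31 had a larger fold in the knockdown line and 10 a larger fold in wild type, an imbalance that choosing the genes by their knockdown values favours. At an unadjusted interaction p under 0.05 there were 15 of the 47, against 288 of all 17467 genes. The same choice of genes favours this excess too, since the knockdown fold and the shared spread enter both tests. BCAT4 (unadjusted p = 0.000823) and AHP4 (unadjusted p = 0.00136) had the smallest. AT1G67860 was the 1 rise among the 15 with the larger fold in wild type, at 2.94 ± 0.27 there and 2.05 ± 0.27 in the knockdown line.

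**Figure D4:**
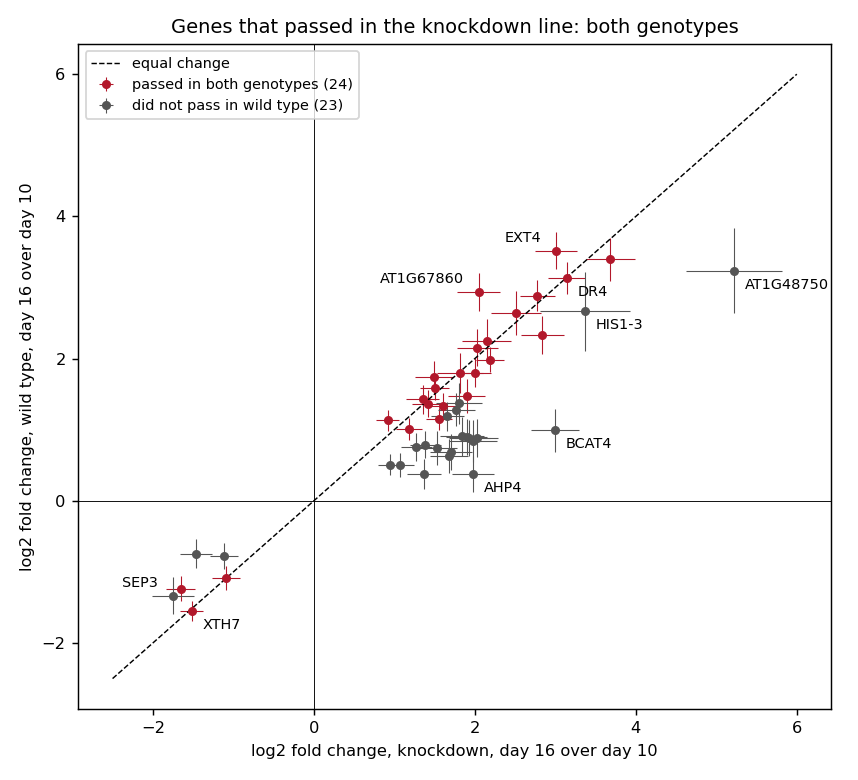
Each point is 1 of the 47 genes that passed in the knockdown line, with its log2 fold change, day 16 over day 10, in the knockdown line on the x axis and in wild type on the y axis; bars are standard errors. All 47 have the same sign in both, 24 (red) also passed in wild type, and BCAT4, AHP4 and AT1G48750 lie furthest below the line of equal change.

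Across 36 gene lists, 8 held a member that passed and 28 held none. The highest medians were those of glucosinolates (1.04), of abscisic acid, cold and drought genes (0.76, but 0.24 without replicate 2 of day 16 and 0.28 without replicate 1 of day 10) and of flowering promoters (0.53), and the lowest were those of type-A response regulators (-0.67), of the 2 tested pollen and embryo markers (-0.48), of guard cell markers (-0.42) and of mesophyll markers (-0.41). The median of all genes was -0.0054 in the knockdown line and 0.10 in wild type. Median-of-ratios scaling left the median of all genes at -0.0024, but leaving out replicate 1 of day 16 moved it to 0.13 and leaving out replicate 2 to -0.13, so list medians of that size are not apart from the libraries' own shift.

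**Figure D5:**
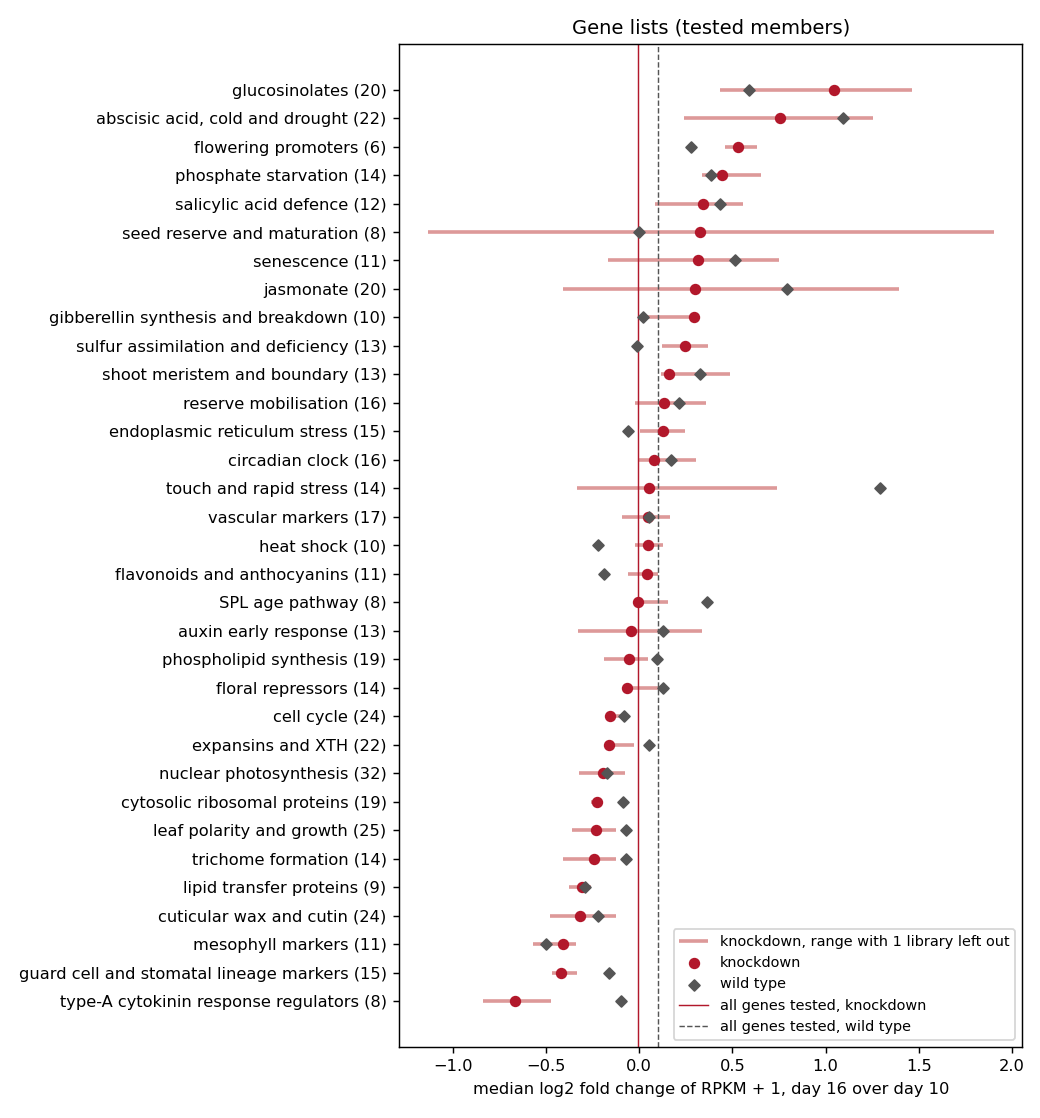
Median log2 fold change, day 16 over day 10, of the 33 lists with at least 5 tested members, with the number tested in brackets; red points are the knockdown line, pale bars its range with 1 knockdown library left out, grey diamonds wild type, and vertical lines the medians of all genes. The bars of jasmonate and of seed reserve genes cross 0 widely, while those of glucosinolates (0.44 to 1.46) and of type-A response regulators (-0.84 to -0.47) stay on 1 side.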

How the data were processed

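RNA of shoot apices was sequenced in 8 libraries of 4 groups, set by the sample titles. The authors deposited RPKM values for 27655 loci, per the file headers, and the low values move in steps of 1 read per exon length. The submitters' processing notes name TAIR10 as the build. None of aligner, counter or strand use is given in the sources used here, so overlapping or near-identical genes are uncertain. Loci were matched by ID to RefSeq's TAIR10.1 annotation, 27445 of them, and the other 210 are organelle loci.

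Values were tested as log2(RPKM + 1) with limma 3.58.1 in R 4.3.3, with an intensity trend and 1 coefficient per group (4 residual and 5.8 prior degrees of freedom). Genes with a two-sided Benjamini-Hochberg adjusted p under 0.05, over all 17467 tested, are called passing. Depth was estimated at 15460000 to 18160000 reads from the steps in the low values. Near-copies were sought with blastn 2.17.0 (at least 90% identity over at least 50 bases).

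Genes were named by rule: up to 15 largest rises and falls of at least 5 RPKM with groups that do not overlap, empty falls filled up to 10 by the smallest p, leading members of 36 lists, and fixed flowering genes. The other genes that passed were named after their values were seen. The libraries, lists and tests were chosen with earlier results of these data known. Of 660 list symbols, repeats included, 635 gave a list member, 11 of them corrected by hand. The authors' tables of changed genes compare genotypes and were not used. Alternatives covered pseudocount, filter, scaling, trend, voom on estimated reads, the replicate block and each library left out.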

Additional observations from a re-analysis of the deposited data

How the results depend on the processing

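The knockdown count of 47 (41 higher, 6 lower) became 15 (13 and 2) with no filter, 30 (26 higher) with no intensity trend, 27 (23 higher) on the knockdown libraries alone and 26 (23 and 3) with voom. The wild-type count of 39 became 12 with no filter, 16 with no trend, 14 with voom and 18 with median-of-ratios scaling. Median-of-ratios scaling without replicate 1 of day 16, chosen after seeing the data, left 6 (6 and 0). With each of the 8 libraries left out, the knockdown count ran from 16 to 52 (12 to 45 higher, 2 to 7 lower) and the wild-type count from 7 to 54. The wild-type count was 16 and 7 without replicate 1 and 2 of wild-type day 16, and 13 and 10 without those of wild-type day 10. Where only 1 library of an age remained, it was assumed to vary like the other groups. The interaction count stayed at 0 in every fit run. All 47 genes kept their sign under both rescalings, quantile normalization and voom. With a knockdown library left out the sign could not change, since the ages did not overlap in any of the 47. The block and the knockdown libraries alone leave the fold changes as they were, so their signs could not differ either. The cause was not tested for any of these shifts.

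The titles number the replicates but do not pair them. A replicate block gave 109 knockdown calls (88 and 21), among them all 47, and 89 wild-type calls. Deviations of the same number at day 16 and day 10 correlated at r = 0.329 over genes in the knockdown line and at -0.239 in wild type. Crossing the wild-type numbers in the replicate block, chosen after seeing the data, gave 80 knockdown calls (68 and 12) and 56 wild-type calls. With 2 libraries an age, a gene with variable replicates can change without passing, and genes under about 1 RPKM rest on few reads.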

Other observations

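Genes of jasmonate differed more between the replicates of an age than between the ages. Their median log2 difference of replicate 2 over replicate 1 was 1.67 at day 16 and 1.45 at day 10. The age median was 0.30. For abscisic acid, cold and drought genes the replicate medians were 1.19 and 0.79, the second close to the age median of 0.76. Over all genes tested the replicate medians were 0.25 and 0.10. Jasmonate is the hormone of wounding. Of its 20 tested genes 0 passed, and 19 were higher in replicate 2 than in replicate 1 at day 16, as were 19 at day 10. Over all genes tested, replicate 2 was the higher one in 74.7% at day 16 and in 64.0% at day 10. Among genes of abscisic acid, cold and drought it was higher in 77.3% and 72.7%. JAZ1, a repressor that jasmonate itself induces, had 0.29 and 18.6 RPKM at day 16 and 0.75 and 10.2 RPKM at day 10. MYC2, the leading transcription factor of the pathway, was listed at 0 in replicate 1 of both ages and had 16.8 RPKM at day 16 and 15.9 RPKM at day 10 in replicate 2. The list median of 0.30 turned to -0.41 without replicate 2 of day 16 and to -0.35 without replicate 1 of day 10. VSP2, a storage protein gene that jasmonate induces, did not follow the replicates: it had 140 and 128 RPKM at day 16 and 47.8 and 34.5 RPKM at day 10, with no overlap between the ages (1.70 ± 0.30, limma adjusted p = 0.0614), and it passed under 4 of the 22 alternatives. VSP1 had 19.5 and 34.1 RPKM at day 16 and 4.35 and 7.04 RPKM at day 10 (2.03 ± 0.40, adjusted p = 0.0926).

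Of 22 genes of abscisic acid, cold and drought 0 passed and 21 were positive, with a median of 0.76 in the knockdown line. That median was 0.24 with 15 positive without replicate 2 of day 16, and 0.28 with 18 positive without replicate 1 of day 10. COR15A, which protects chloroplasts in the cold, had the smallest p, with 181 and 70.1 RPKM at day 16 and 52.2 and 34.8 RPKM at day 10 (1.38 ± 0.40, limma adjusted p = 0.287). RD29A had 18.5 and 196 RPKM at day 16 and 17.9 and 73.1 RPKM at day 10, so its replicates differed more than its ages. Among 14 touch and rapid stress genes ERF5 rose, 0 fell and 7 were positive, and the median of 0.05 ran from -0.33 to 0.74 with 1 knockdown library left out. Phosphate starvation genes gave 0 passing of 14, with 11 positive and a median of 0.45. In that list the phosphate transport regulator PHO2 had 18.7 and 25.6 RPKM at day 16 and 10.7 and 9.52 RPKM at day 10 (1.04 ± 0.21, adjusted p = 0.106).

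Lists not described so far held no gene that passed. In phospholipid synthesis, the pathway of PECT1, 6 of 19 tested genes were positive, with a median of -0.06, and PIS1, which makes phosphatidylinositol, had 17.42 and 18.8 RPKM at day 16 and 22.7 and 24.9 RPKM at day 10 (-0.38 ± 0.16, limma adjusted p = 0.551). Cytosolic ribosomal proteins had 1 of 19 positive, led by RPS6A (462 and 491 RPKM at day 16, 615 and 638 RPKM at day 10). Their median of -0.23 ran from -0.26 to -0.20 with 1 knockdown library left out, and was -0.05 under quantile normalization. In 17 of the 19 both libraries of day 16 lay below both of day 10 (17.9% over all genes), and in 1 above (15.9%). Cell cycle genes had 4 of 24 positive (median -0.15, CYCB1;1 at 5.63 and 5.3 RPKM and 6.85 and 9.71 RPKM), leaf polarity and growth genes 4 of 25 (-0.23, AS1), trichome genes 2 of 14 (-0.24, ETC3) and cuticular wax and cutin genes 4 of 24 (-0.32, KCS5). Gibberellin genes had 6 of 10 positive (0.30, KAO2), auxin early response genes 6 of 13 (-0.04, SAUR9), clock genes 11 of 16 (0.08, CDF1), flavonoid genes 7 of 11 (0.04, MYB111) and senescence genes 8 of 11 (0.31, ORE1). Endoplasmic reticulum stress genes had 13 of 15 positive (0.13, PDIL1-2), heat shock genes 6 of 10 (0.05, HSFB2A), reserve mobilisation genes 14 of 16 (0.13, CSY3) and seed reserve genes 7 of 8 (0.33, OLEO4). Root markers had 0 of 3 positive (-0.24, WOX5) and pollen and embryo markers 0 of 2 (AGP11). With 1 knockdown library left out, 9 of these medians took the other sign. Without replicate 2 of day 16, that of senescence genes was -0.17, of seed reserve genes -0.60, of reserve mobilisation genes -0.02, of heat shock genes -0.02, of flavonoid genes -0.02, of clock genes -0.0026 and of gibberellin genes -0.0024. Seed reserve genes also turned to -1.13 without replicate 2 of day 10, with sums of 10.8 and 56.5 RPKM at day 16 and 75.5 and 1.83 RPKM at day 10. Without replicate 1 of day 16, auxin genes turned to 0.34, phospholipid genes to 0.05 and flavonoid genes to -0.06. Wax and cutin genes ran from -0.48 to -0.12, leaf polarity genes from -0.36 to -0.12, trichome genes from -0.41 to -0.13, cell cycle genes from -0.18 to -0.07 and endoplasmic reticulum stress genes from 0.01 to 0.25. The gene named with each list had its smallest p, and these genes had adjusted p of 0.258 to 0.8.

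Of 70 tested chloroplast-encoded genes 0 passed limma, 11 had an unadjusted p under 0.05 and 48 were positive. Over all genes tested, 8.55% had such a p and 49.2% were positive. The median log2 fold change of the chloroplast-encoded genes was 0.26 in the knockdown line and -0.13 in wild type. Without replicate 1 of day 16 the knockdown median was 0.10.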
